A study of Caenorhabditis elegans with 4 samples.

Results

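The genes described here are 10 cytosolic heat shock genes of *C. elegans*, chosen by name: the small heat shock protein genes *hsp-16.1*, *hsp-16.2*, *hsp-16.11*, *hsp-16.41* and *hsp-16.48*, and *hsp-70*, *F44E5.4*, *F44E5.5*, *hsp-1* and *hsp-110*. All 10 were found among the 46643 rows of the count table. RNA was sequenced from whole wild-type (N2) animals at day 1 of adulthood, which had been raised at 25 °C since the first larval stage, 2 libraries in the presence of 2.5 mM ketamine and 2 libraries with M9 buffer as vehicle (control, 0 mM). All animals carried the same genotype and were fed OP50 bacteria, and nothing in the labels states whether the 2 libraries of a group came from separate cultures, so the p-values measure only the spread between these libraries. The study describes uneven development on ketamine, and a difference in stage between the groups cannot be told apart from the treatment.

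Heat shock proteins are chaperones that keep other proteins from aggregating or help them to fold. In *C. elegans*, the HSP-16 proteins are small chaperones that bind unfolded proteins, and their genes are nearly silent in unstressed animals and switched on by heat through the transcription factor HSF-1. *hsp-70*, *F44E5.4* and *F44E5.5* encode HSP70 proteins that are likewise induced by heat, whereas *hsp-1* encodes the constitutive HSP70 (HSC70) of the cytosol and *hsp-110* its nucleotide exchange factor.

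Libraries held 29192110 to 34533449 counts under ketamine and 36241505 to 43419202 counts in controls. Control 1 stood apart. Across the 15793 genes tested, its log2 CPM (counts as CPM, each library's total being scaled by edgeR's TMM method) correlated at 0.949 to 0.962 with the other 3 libraries, which correlated at 0.978 to 0.988 with each other. Mitochondrial genes took 3.55% of its counts, against 0.966% to 1.18% in the other libraries. Markers of intestine, muscle and neurons were present in every library. The intestine list summed to 59382 and 58642 CPM under ketamine, against 33412 CPM in control 1 and 63153 CPM in control 2. The muscle list summed to 2132 and 2050 CPM under ketamine, against 1891 and 3484 CPM in controls. The adult epidermis marker *col-19* had 849 and 725 CPM under ketamine, against 310 and 1556 CPM in controls. For *col-19* and the sums of the intestine, muscle and neuron lists, both ketamine libraries lay between the controls. The oocyte and eggshell list (11 genes, none at 0) summed to 15241 and 14998 CPM under ketamine. In controls it summed to 9391 CPM (control 1) and 12694 CPM (control 2). Both ketamine libraries were above both controls in 8 of these 11 genes (23.1% of all tested genes) and below in 0 (20.6%). The larval or molting epidermis list (6 genes, none at 0) summed to 94.8 and 44.0 CPM under ketamine, against 11.8 and 37.3 CPM in controls, with both ketamine libraries above both controls in 5 of the 6 genes (23.1% of all tested genes). The sperm list (8 genes, none at 0) summed to 84.7 and 67.7 CPM under ketamine and to 110 and 119 CPM in controls, with both ketamine libraries below both controls in 5 of the 8 (20.6% of all tested genes). The part of these markers in the levels of the heat shock genes was not tested. In whole animals, fewer cells of a type and less RNA per cell cannot be told apart.

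None of the 10 heat shock genes was called changed by ketamine. All 10 passed the filter on low counts. The test was edgeR's (quasi-likelihood), its p-values were adjusted by Benjamini and Hochberg's method across all tested genes, and a call needed an adjusted p under 0.05 together with a difference of 2-fold or more. By this rule 0 of the 10 were higher and 0 lower, where 0.095% of all tested genes were called higher and 0% lower. At an unadjusted p under 0.05 and the same fold, 0 were higher (2.05% of all genes) and 1 was lower, *hsp-16.11* (1.63% of all genes). DESeq2 also called 0 higher (0.69% of all genes) and 0 lower (0.146%), and at its unadjusted p it had 1 gene higher, *hsp-16.48* (2.32% of all genes), and 1 lower, *hsp-16.11* (1.54%). limma on log2(FPKM + 1) likewise had 0 called and 1 lower at an unadjusted p, *hsp-16.11* (0.405% of all genes). With 2 libraries against 2, an exact permutation test of a single gene cannot give a two-sided p below 0.333.

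In direction, 8 of the 10 genes had a log2 fold change below 0, and the median was -0.67, beside -0.01 over all tested genes. For 6 of the 10, each ketamine library was lower than each control, which 20.6% of all tested genes did, and for 0 of the 10 each was higher, which 23.1% did. These counts need care. *hsp-16.1*, *hsp-16.11* and *F44E5.4* passed the filter on low counts (at least 10 counts in at least 2 libraries) only through the controls, so their direction was fixed by the filter. Of the other 7 genes, 3 had the ketamine libraries under the controls without overlap, and the median log2 fold change of the 7 was -0.29. Among these 3, *F44E5.5* (15 and 4 counts under ketamine, 29 and 22 in controls) also needed a control library to pass the filter. The median of all 10 was -0.24 without control 1 and -0.86 without control 2, and it was -0.20 by limma on log2(FPKM + 1) and -0.35 with the near-identical copies summed.

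**Figure D1:**
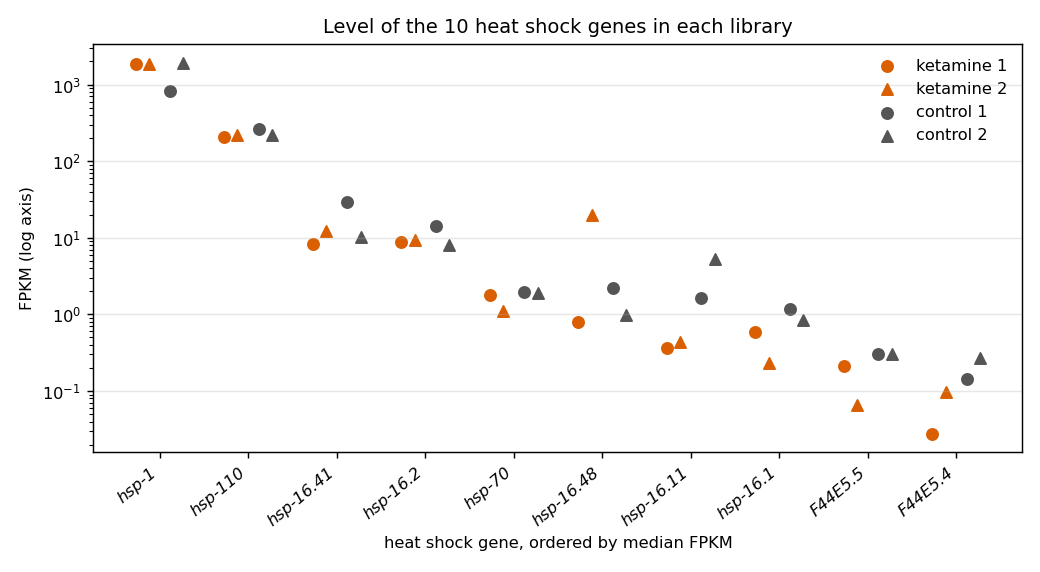
FPKM of the 10 heat shock genes (log axis), with 1 point per library: orange for ketamine, grey for control, circles for library 1 and triangles for library 2. *hsp-1* and *hsp-110* lie far above the other 8 genes in every library, and *hsp-16.48* in ketamine 2 (19.7 FPKM) stands apart from its other values.

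The constitutive genes were by far the most abundant. In FPKM (fragments scaled to gene length and library size, deposited by the authors), the median over the 4 libraries was 1864 for *hsp-1*, 220 for *hsp-110*, 11.3 for *hsp-16.41*, 9.09 for *hsp-16.2*, 1.83 for *hsp-70*, 1.58 for *hsp-16.48*, 1.03 for *hsp-16.11*, 0.717 for *hsp-16.1*, 0.256 for *F44E5.5* and 0.121 for *F44E5.4*. The ranges of *hsp-1* and *hsp-110* over the libraries did not overlap with each other or with those of the next gene in this order. Neither did that of *hsp-16.2* with that of *hsp-70*. *hsp-16.41* and *hsp-16.2* overlapped, and so did each neighbouring pair from *hsp-70* down to *F44E5.4*. By mean FPKM *hsp-1* ranked 53 and *hsp-110* 463 among the 15793 tested genes, whereas *F44E5.4* ranked 15735. *hsp-1* alone gave 87.0% and 86.4% of the counts of the 10 genes under ketamine, against 69.5% in control 1 and 86.6% in control 2.

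*hsp-1* (F26D10.3, WBcel235 chromosome IV, 17278957 to 17281335, plus strand, 4 exons) had 132840 and 113871 counts under ketamine, against 79184 in control 1 and 142741 in control 2. In TMM-scaled CPM this was 3902 and 3945 under ketamine and 1719 and 4081 in controls. The low value was that of control 1 alone, and both ketamine libraries lay between the controls. The log2 fold change was 0.44 (standard error 0.43, 95% interval -0.66 to 1.54, adjusted p = 0.767, edgeR). It was -0.08 without control 1 and 1.20 without control 2. In these fits the single remaining control is assumed to vary as the ketamine libraries do. In the alternatives that kept every library, the adjusted p ran between 0.716 (limma on log2(FPKM + 0.1)) and 0.981 (DESeq2). A snoRNA gene inside *hsp-1*, F26D10.24, had at most 1 count in any library.

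*hsp-110* (C30C11.4, chromosome III, 8443917 to 8446920, minus strand, 6 exons) had 568 and 598 CPM under ketamine, against 720 and 610 CPM in controls. Both ketamine libraries lay below both controls, but by less than the controls differed from each other. The log2 fold change was -0.19 (standard error 0.17, 95% interval -0.63 to 0.25, adjusted p = 0.753, edgeR), so a change of 2-fold in either direction lies outside this interval. It was -0.092 without control 1 and -0.30 without control 2.

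The inducible HSP70 genes were low in all libraries. *hsp-70* (C12C8.1, chromosome I, 9320361 to 9322511, minus strand, 3 exons) had 124 and 66 counts under ketamine, against 186 and 134 in controls, or 3.64 and 2.29 CPM under ketamine and 4.04 and 3.83 CPM in controls. The ketamine libraries lay below the controls, and differed more from each other than the groups did. Its log2 fold change was -0.41 (standard error 0.34, adjusted p = 0.751, edgeR), and it was -0.11 without ketamine 2 and -0.78 without ketamine 1. The gene overlaps F26H9.8 on the opposite strand, which had 44 and 59 counts under ketamine and 178 and 83 in controls. Whether counting used the strand is not given in the sources used here.

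*F44E5.4* and *F44E5.5* lie head to head on chromosome II (11757106 to 11759311, minus strand, and 11759681 to 11761852, plus strand), with 369 bp between them. *F44E5.4* had 2 and 6 counts under ketamine, against 14 and 20 in controls. *F44E5.5* had 15 and 4 counts under ketamine, against 29 and 22 in controls. Both genes were lower in each ketamine library than in each control, on very few reads. The log2 fold changes were -1.71 (standard error 0.78) for *F44E5.4* and -1.08 (standard error 0.63) for *F44E5.5*, each with an adjusted p of 0.748 in edgeR. *F44E5.4*, whose direction was fixed by the count filter, was at -1.05 without ketamine 1 and -2.82 without ketamine 2. *F44E5.5* was at -2.16 without ketamine 1 and -0.51 without ketamine 2. By limma on log2(FPKM + 1), which shrinks differences at low levels, they were at -0.18 for *F44E5.4* and -0.20 for *F44E5.5*. They are near-identical copies, and how reads that match both were counted is not given in the sources used here. With the copies summed, the pair had 17 and 10 counts under ketamine, against 43 and 42 in controls. For the sum edgeR gave -1.32 on the log2 scale, with a standard error of 0.44, an unadjusted p of 0.0309 and an adjusted p of 0.748. The sum includes *F44E5.4*, whose direction was fixed by the filter.

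**Figure D2:**
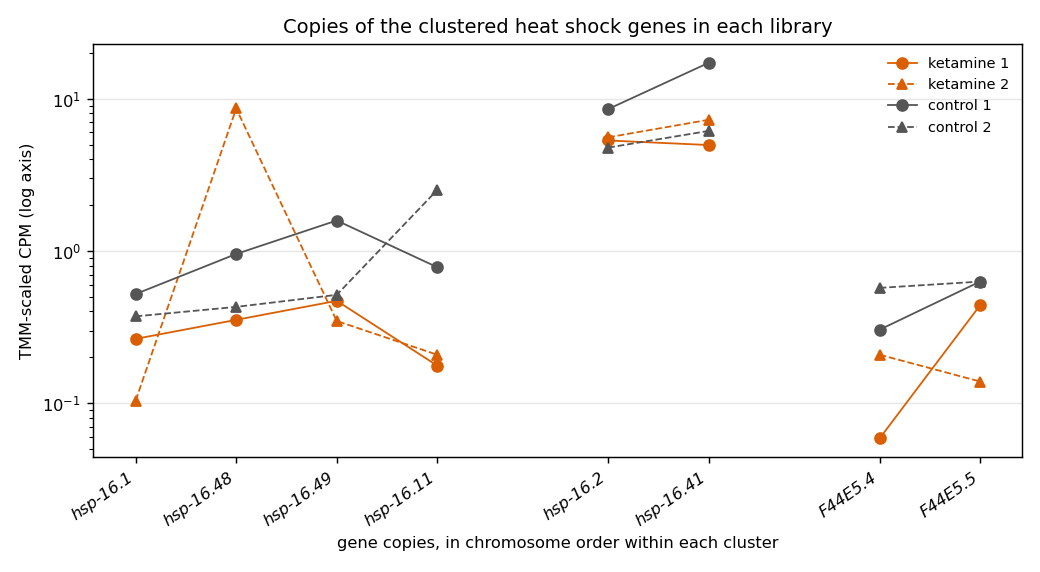
TMM-scaled CPM (log axis) of the clustered heat shock genes in their order along the chromosome, 1 line per library: orange for ketamine, grey for control, solid for library 1 and dashed for library 2. *hsp-16.48* in ketamine 2 (8.63 CPM) and *hsp-16.11* in control 2 (2.52 CPM) each stand above their neighbours in the same library.

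The *hsp-16* genes form 2 clusters on chromosome V. Each of the 5 genes has 2 exons, and none overlaps another gene. *hsp-16.2* and *hsp-16.41* lie head to head (1804334 to 1804971, minus strand, and 1805233 to 1805875, plus strand) with 261 bp between them. The other cluster holds *hsp-16.1* (9087293 to 9087782, minus strand), *hsp-16.48* (9088131 to 9088617, plus strand), *hsp-16.49* and *hsp-16.11* (9090077 to 9090604, plus strand). Here *hsp-16.1* and *hsp-16.48* are head to head with 348 bp between them, and so are *hsp-16.49* and *hsp-16.11* with 310 bp. *hsp-16.11* is a near-identical copy of *hsp-16.1*, and *hsp-16.49*, which is not among the 10 genes, of *hsp-16.48*.

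The *hsp-16.2* and *hsp-16.41* pair was the more abundant cluster, and its high value was in a control library. *hsp-16.41* (Y46H3A.2) had 169 and 210 counts under ketamine, against 794 in control 1 and 215 in control 2, or 4.96 and 7.28 CPM under ketamine and 17.2 and 6.15 CPM in controls. *hsp-16.2* (Y46H3A.3), the gene most used as a reporter of heat stress, had 181 and 161 counts under ketamine, against 394 and 167 in controls, or 5.32 and 5.58 CPM under ketamine and 8.55 and 4.77 CPM in controls. Control 1 was highest for both genes, and in both the ketamine libraries overlapped the controls. The log2 fold changes were -0.94 for *hsp-16.41* (standard error 0.55, adjusted p = 0.748, edgeR) and -0.29 for *hsp-16.2* (standard error 0.36, adjusted p = 0.799, edgeR).

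These values rested on control 1. Without it the log2 fold change was -0.04 for *hsp-16.41* and 0.16 for *hsp-16.2*. Without control 2 it was -1.49 for *hsp-16.41* and -0.65 for *hsp-16.2*. The ratio of *hsp-16.2* to *hsp-16.41* FPKM was 1.06 and 0.758 under ketamine, against 0.490 and 0.768 in controls, so *hsp-16.41* was in excess by the most in control 1.

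*hsp-16.48* (T27E4.3) was high in 1 library only. It had 12 counts in ketamine 1 and 249 in ketamine 2, against 44 and 15 in controls, or 0.352 and 8.63 CPM under ketamine and 0.955 and 0.429 CPM in controls. The ketamine libraries were thus the lowest and the highest of the 4. The log2 fold change of 2.67 had a standard error of 1.40 (95% interval -0.94 to 6.28, adjusted p = 0.748, edgeR), and without ketamine 2 it was -0.98. The high value in ketamine 2 was not shared by the near-identical *hsp-16.49* (T27E4.9), with 16 and 10 counts under ketamine and 73 and 18 in controls. Of the counts of these 2 copies, *hsp-16.48* took 96.1% in ketamine 2 (exact 95% interval 93.0% to 98.1%), against 42.9% in ketamine 1, 37.6% in control 1 and 45.5% in control 2. The intervals of those 3 libraries reached at most 63.6%, and all of these intervals cover counting error only. They leave out how reads that match both copies were counted, which is not given in the sources used here, so the split is uncertain. The high value was not shared by *hsp-16.1* either, the gene on the other side of the intergenic region, which had 3 counts in ketamine 2. With *hsp-16.48* and *hsp-16.49* summed, the pair had 28 and 259 counts under ketamine, against 117 and 33 in controls, and edgeR gave the sum a log2 fold change of 1.47 with a standard error of 1.13 and an adjusted p of 0.748.

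*hsp-16.11* (T27E4.2) had the lowest log2 fold change of the 10 genes. It had 6 counts in each ketamine library, against 36 in control 1 and 88 in control 2, or 0.176 and 0.208 CPM under ketamine and 0.781 and 2.52 CPM in controls. The groups did not overlap, with ketamine the lower, and the controls themselves differed by 1.62 on the log2 CPM scale. The log2 fold change was -3.07 (standard error 0.76, 95% interval -5.02 to -1.12, unadjusted p = 0.00989, adjusted p = 0.748, edgeR). The gene passed the count filter through the controls alone, so its direction was fixed by the filter and these p-values are no independent evidence of it. The adjusted p was 0.0505 in DESeq2 and 0.123 in edgeR without the filter. The log2 fold change was -3.72 without control 1 and -2.01 without control 2, where the remaining control is assumed to vary as the ketamine libraries do. In the alternatives that kept every library, the adjusted p ran between 0.0505 (DESeq2) and 0.748 (edgeR with the copies summed).

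The high value of *hsp-16.11* in control 2 was, again, not seen in its neighbour. *hsp-16.49* had 18 counts there, and the ratio of *hsp-16.11* to *hsp-16.49* FPKM was 0.340 and 0.545 under ketamine, against 0.448 in control 1 and 4.44 in control 2. The near-identical *hsp-16.1* (T27E4.8) had 9 and 3 counts under ketamine and 24 and 13 in controls, and in edgeR its log2 fold change was -1.24, with a standard error of 0.64 and an adjusted p of 0.748. This value was -2.07 without ketamine 1, -0.76 without ketamine 2 and -0.51 by limma on log2(FPKM + 1), and its direction was likewise fixed by the filter. With *hsp-16.1* and *hsp-16.11* summed, there were 15 and 9 counts under ketamine, against 60 and 101 in controls. For the sum edgeR gave -2.45 on the log2 scale, with a standard error of 0.56, an unadjusted p of 0.00761 and an adjusted p of 0.748. Both genes passed the count filter through the controls alone, so these p-values are no independent evidence of a direction. How reads that match both copies were counted is not given in the sources used here, so the split between copies is uncertain.

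**Figure D3:**
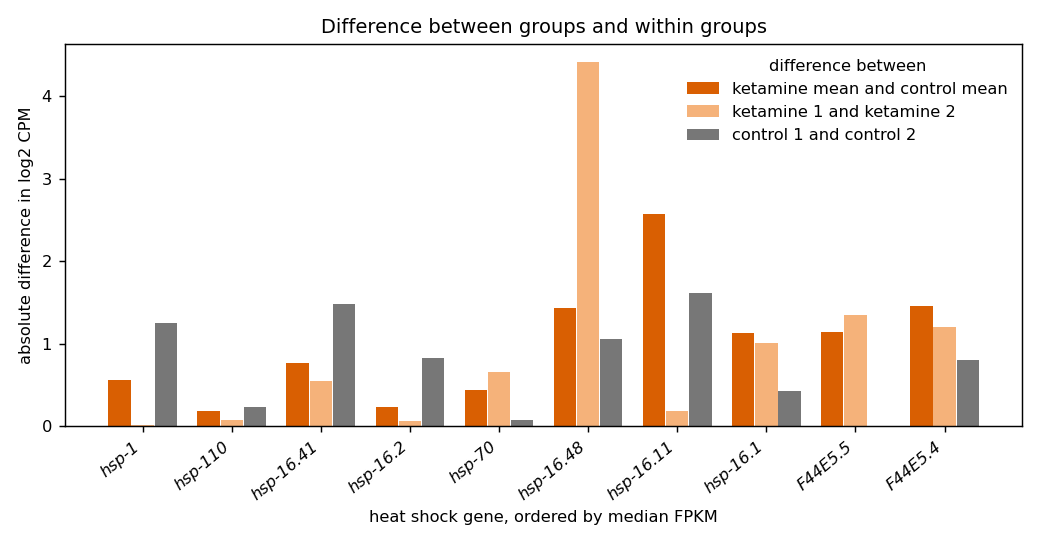
Absolute difference in log2 CPM for each of the 10 genes: between the ketamine mean and the control mean (orange), between the 2 ketamine libraries (light orange) and between the 2 control libraries (grey). In 3 of the 10 genes, *hsp-16.11*, *hsp-16.1* and *F44E5.4*, the difference between groups was larger than both differences within groups. These 3 passed the count filter through the controls alone.

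Set against the spread within groups, the difference between the group means of log2 CPM was larger than both the ketamine and the control difference in 3 of the 10 genes. These were *hsp-16.11*, *hsp-16.1* and *F44E5.4*, the same 3 that passed the count filter through the controls alone. For the other 7 genes, libraries of 1 group differed by more than the groups did. The 2 controls differed by more than 1 on the log2 scale in *hsp-1*, *hsp-16.41*, *hsp-16.11* and *hsp-16.48* (4 of 10), and the 2 ketamine libraries in *hsp-16.48*, *F44E5.5*, *F44E5.4* and *hsp-16.1* (4 of 10). The share of all tested genes with such differences, within or between groups, was not worked out, so these counts are a description only. Summed over the 8 genes other than *hsp-1* and *hsp-110*, the level was 15.2 and 24.4 CPM under ketamine, against 33.0 and 19.3 CPM in controls. Without *hsp-16.48* it was 14.9 and 15.8 CPM under ketamine, against 32.1 and 18.8 CPM in controls.

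The 5 *hsp-16* genes did not follow 1 profile over the 4 libraries. The distance of each gene's centred log2 CPM from their mean profile was 0.75 for *hsp-16.2*, 0.77 for *hsp-16.41*, 1.39 for *hsp-16.1*, 2.45 for *hsp-16.11* and 3.30 for *hsp-16.48*. Of 12109 other tested genes with a mean count of at least 50, *oac-58* (0.08), *sdz-33* (0.12) and *skr-10* (0.12) lay nearest to this mean profile. In ketamine 2 the mean profile was at 0.09, with *hsp-16.48* at 2.92 and the other *hsp-16* genes at -1.19 to -0.08. As these 3 were picked as the nearest of 12109 genes, their lying nearer than any *hsp-16* gene says nothing about the *hsp-16* genes. With 4 libraries and so many genes, such closeness is a description only.

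Of the regulators of the heat shock response none passed the test. *hsf-1* (Y53C10A.12), the transcription factor that drives these genes, had 113 and 113 CPM under ketamine, against 106 and 96.6 CPM in controls, and edgeR gave it a log2 fold change of 0.15 with a standard error of 0.14 (95% interval -0.21 to 0.52) and an adjusted p of 0.758. *hsb-1*, which binds HSF-1 and holds it back, had 65.2 and 60.1 CPM under ketamine, against 33.4 and 58.9 CPM in controls (log2 fold change 0.44, standard error 0.30, adjusted p = 0.748, edgeR). *ddl-1*, of the same inhibitory complex, had 17.7 and 19.9 CPM under ketamine and 10.7 and 13.5 CPM in controls, and *ddl-2* had 21.6 and 19.5 CPM under ketamine and 7.21 and 20.3 CPM in controls. Of these 4 genes 0 were called, and in 3 both ketamine libraries lay above both controls (23.1% of all genes). The median log2 fold change was 0.51, but 0.13 without control 1 and 0.87 without control 2, and control 1 had the lowest value in *hsb-1*, *ddl-1* and *ddl-2*.

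**Figure D4:**
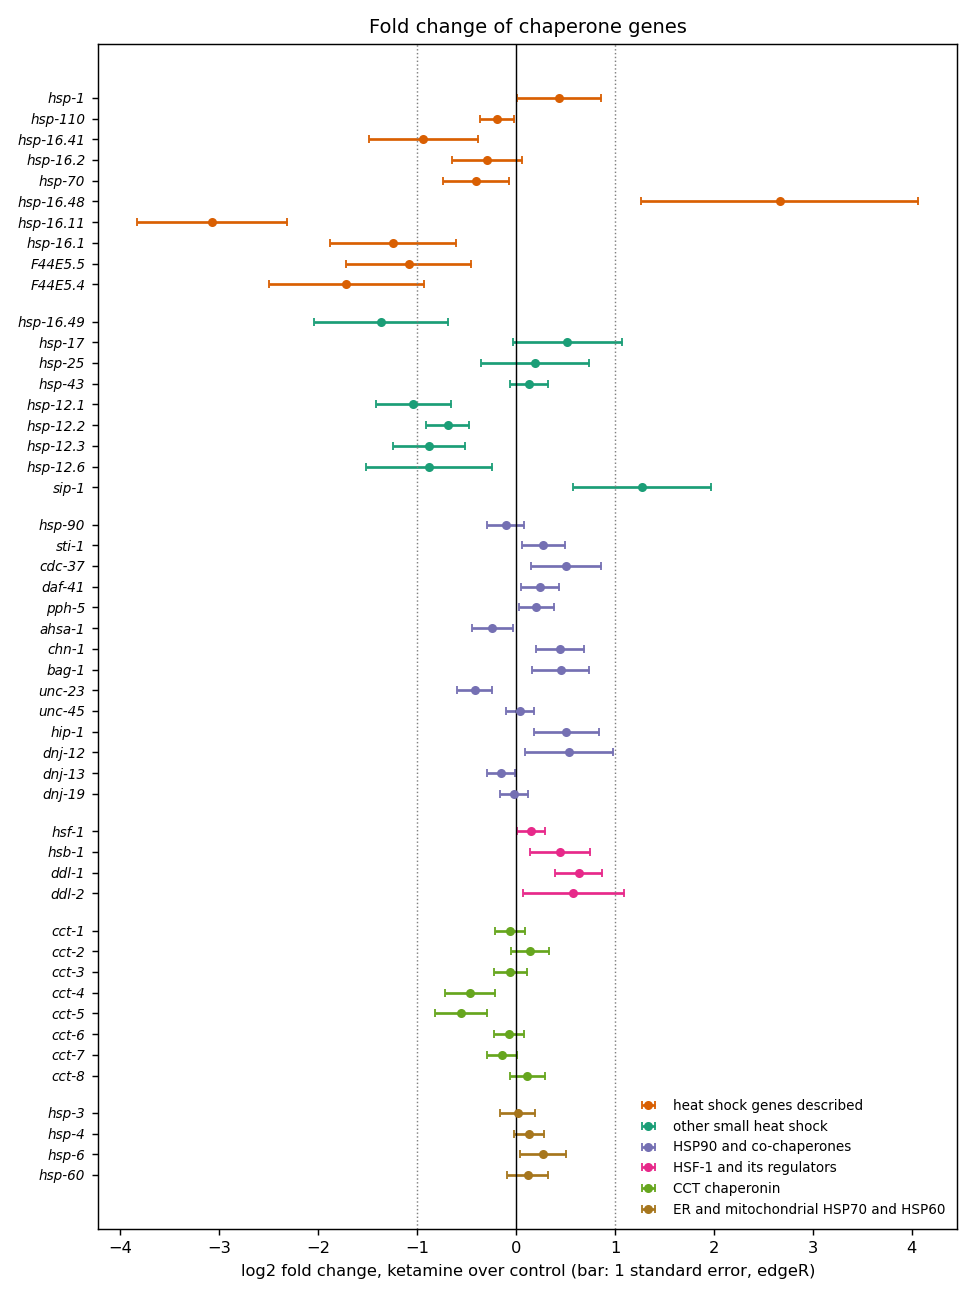
Log2 fold change of ketamine over control for the 10 heat shock genes and the tested genes of 5 other chaperone lists, with bars of 1 standard error from edgeR and dotted lines at 2-fold. The 10 heat shock genes spread from -3.07 to 2.67, while the CCT chaperonin and the organelle chaperones lie between -0.56 and 0.27. The ends of that spread, *hsp-16.11* (6 to 88 counts) and *hsp-16.48* (12 to 249 counts), are genes of low counts. The abundant *hsp-1* and *hsp-110* are at 0.44 and -0.19.

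Among 11 other small heat shock protein genes, 9 were tested and 0 were called in either direction by edgeR or by DESeq2. The median log2 fold change was -0.69, but -0.35 without control 1 and -0.46 by limma on log2(FPKM + 1). Both ketamine libraries lay below both controls in 4 of the 9 (20.6% of all tested genes) and above in 1 (23.1%). At an unadjusted p under 0.05 and at least 2-fold, 1 was lower (1.63% of all genes), *hsp-12.1*, with 1.20 and 1.28 CPM under ketamine, against 3.15 and 1.94 CPM in controls, and by DESeq2 1 was lower (1.54% of all genes), the same gene, and 1 higher (2.32%), *sip-1* (for *hsp-12.1*, log2 fold change -1.04, standard error 0.38, adjusted p = 0.748, edgeR). *hsp-16.49* had the lowest value (-1.36) and *sip-1*, a small heat shock protein of oocytes and embryos, the highest. *sip-1* had 1534 and 1228 CPM under ketamine, against 208 CPM in control 1 and 936 CPM in control 2 (log2 fold change 1.27, standard error 0.70, adjusted p = 0.748, edgeR). Control 1 was the lowest here as it was for *hsp-1*. The sums of the oocyte and eggshell, intestine, muscle and larval or molting epidermis lists were also lowest in that library. Those of the neuron and sperm lists were not. Among the oocyte and eggshell genes, control 1 was lowest for *cbd-1*, *perm-2*, *perm-4*, *cpg-1*, *cpg-2* and *oma-1*. It was not lowest for *egg-1*, *egg-2*, *puf-5*, *oma-2* and *rme-2*. A link with *sip-1* or *hsp-1* was not tested.

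HSP90 matures client proteins handed over from HSP70. The list of HSP90 and co-chaperones, which also holds partners of HSP70, numbered 14 genes, all tested. edgeR and DESeq2 each called 0, and at an unadjusted p and 2-fold there were also 0. *hsp-90* had 4005 and 4125 CPM under ketamine, against 4736 and 4003 CPM in controls (log2 fold change -0.10, standard error 0.19, adjusted p = 0.860, edgeR). The list ran from -0.42 for *unc-23*, a BAG-domain protein, to 0.54 for *dnj-12*, a DNAJ partner of HSP70, with a median of 0.22. This median rested on control 1, being 0.01 without that library and 0.41 without control 2. Both ketamine libraries were above both controls in 8 of the 14 genes (23.1% of all tested genes) and below in 2 (20.6%).

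The 8 subunits of CCT, the cytosolic chaperonin that folds actin and tubulin, had a median log2 fold change of -0.06, from -0.56 for *cct-5* to 0.14 for *cct-2*, and 0 were called by edgeR or DESeq2 or at an unadjusted p and 2-fold. The HSP70 and HSP60 proteins of the endoplasmic reticulum and mitochondria, *hsp-3*, *hsp-4*, *hsp-6* and *hsp-60*, ran from 0.02 for *hsp-3* to 0.27 for *hsp-6*, again with 0 called by edgeR or DESeq2 or at an unadjusted p and 2-fold. *hsp-4*, the ER chaperone induced by the unfolded protein response, had 530 and 518 CPM under ketamine, against 491 and 465 CPM in controls (log2 fold change 0.13, standard error 0.15, adjusted p = 0.786, edgeR).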

How the data were processed

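Raw counts per gene and FPKM were deposited by the authors, whose processing notes name HISAT2 2.0.5, StringTie 1.3.3b, featureCounts 1.5.0-p3 and the build WBcel235. Strand and multi-mapping settings are not given in the sources used here. For genes over 50 counts, 100% of the deposited FPKM values were within 1% of count over gene length with 1 constant per library. The WT columns were taken as the controls of the same number. Genes were named from RefSeq locus tags, since the Ensembl table gives *hsp-16.11* and *hsp-16.49* the symbols of their copies. Promoter and protein sequences were not used here. Ketamine was compared with control in edgeR 4.0.16 (TMM, quasi-likelihood, no block). The 15793 genes tested reached 10 counts in 2 or more libraries; log2 CPM used a prior count of 2. The fits ran in R 4.3.3. Standard errors are the log2 fold change over the square root of F. DESeq2 1.42.0, limma 3.58.1 on log2(FPKM + 1) and log2(FPKM + 0.1), other size factors, no filter, a replicate block, summed copies and leaving out each library were the alternatives. Fits were tested on simulated counts. The 10 genes and all lists were chosen with earlier results of these data known. Named besides the 10 were *hsf-1*, *hsb-1*, the ends of each list and the 3 genes nearest the mean *hsp-16* profile. *hsp-12.1*, *hsp-90*, *hsp-4* and *ddl-2* were added after their values were seen. The number of libraries and their counts limit the precision.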

Additional observations from a re-analysis of the deposited data

How the results depend on the processing

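Other size factors in edgeR, DESeq2, no count filter, limma with either pseudocount, the replicate block and summed copies left 0 of the heat shock genes called in either direction. Calls among the 10 genes changed when a control was left out. Fits that left out a library kept a single library in a group, so only their log2 fold changes are given. The 10 genes' median log2 fold change, -0.67, lay between -0.86 (without control 2) and -0.24 (without control 1) in those fits, and was -0.20 by limma on log2(FPKM + 1) and -0.35 with the copies summed. The sign turned for *hsp-1* (-0.083 without control 1, 1.20 without control 2), *hsp-16.2* (0.16 without control 1, -0.65 without control 2) and *hsp-16.48* (-0.98 without ketamine 2, 3.62 without ketamine 1). The cause was not tested. Over all genes, edgeR called 15 higher and 0 lower, DESeq2 109 and 23, edgeR without a filter 67 and 6, limma on log2(FPKM + 1) 24 and 0, and fits leaving out a library 21 to 1725 higher and 0 to 678 lower. With the replicate number as a block, 34 were higher and 0 lower, and the 10 genes had a median of -0.61. The numbers are not known to pair the libraries: the difference between ketamine 1 and 2 correlated with that between control 1 and 2 at 0.081 across genes. At most 88 counts in any library of *hsp-16.1*, *hsp-16.11*, *F44E5.4* and *F44E5.5* limit what could be detected.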
